A study of Mus musculus with 16 samples.

Results

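The genes described here encode the enzymes and chaperones that modify, fold and trim collagen: the prolyl 4-hydroxylase subunits P4ha1, P4ha2 and P4hb, the lysyl hydroxylases Plod1, Plod2 and Plod3, the chaperones Serpinh1 and Crtap, and the propeptide-processing genes Bmp1 and Pcolce. They were chosen by function, with earlier results of these data known. Every probe that the array's annotation assigns to them was used: 14 probes of 10 genes, among 16593 genes on the array. Bmp1 had 4 probes, Crtap 2 and the other genes 1 each. Transcripts of the femur and of white adipose tissue (fat) were measured on 16 Illumina bead arrays. The 8 mice were males of strain C3HeB/FeJ, an inbred strain, 17 weeks old, and each gave 1 array of each tissue. Among them 4 were AEA001 mutants, from a line derived by ENU mutagenesis, and 4 were wild type, which leaves 4 arrays for a tissue and genotype. Its submitters call AEA001 a model of osteoporosis, and the mutated gene is Ednra, the endothelin receptor type A gene. No label gives the zygosity, and a germline mutation of this kind is not limited to a cell type. The Ednra transcript is not analysed here. Only 7 different animal identifiers appear in the labels, and the one used more than once belongs to AEA001 mutant replicate 4 and to wild type replicate 3. Values are the authors' normalized probe intensities on a linear scale. Differences are on the log2 scale after intensities below 16 were set to 16, with limma's moderated standard error, and adjusted p-values cover all probes tested.

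Collagen chains are modified while they enter the endoplasmic reticulum (ER). Prolyl 4-hydroxylase stabilises the triple helix, lysyl hydroxylases set the sites for sugars and cross-links, and the chaperone HSP47, the product of Serpinh1, holds the folded procollagen. After secretion the C-propeptide is cut by the bone morphogenetic protein 1 (BMP-1) family of proteases, helped by the enhancer protein encoded by Pcolce. In people, loss of SERPINH1, CRTAP, BMP1 or PLOD2 causes brittle bone disease, which is why these genes are of interest in bone. Fat also lays down collagen around its cells, made mainly by stromal fibroblasts.

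The 10 genes separated the tissues far more clearly than the genotypes. By their brightest probe, 2 genes (Plod2 and Bmp1) were higher in wild-type femur than in wild-type white adipose tissue, 6 were lower there (P4ha2, Plod1, Plod3, Serpinh1, Pcolce and Crtap), and P4ha1 and P4hb did not pass the threshold. This large share is usual between these tissues, since by the same rule 35.2% of all genes tested were higher in femur and 37.1% lower, and 71.4% of probes passed. The wild-type arrays of the tissues did not overlap for these 8, where 34.6% of all genes lay wholly lower in femur and 33.3% wholly higher. In mutants 2 were higher in femur (Plod2 and Bmp1) and 6 lower (P4ha1, P4ha2, Plod1, Serpinh1, Pcolce and Crtap), against 33.6% of all genes higher and 38.3% lower. Bmp1 was counted here by ILMN_2989955, and its direction depended on the probe. Its probes ILMN_1218116 and ILMN_2713538 were lower in femur in both genotypes (-1.40 and -1.24 in wild type). The median of the 10 genes in wild type was -0.50, against -0.04 over all 10847 genes tested. Between AEA001 mutants and wild type, 0 of the 10 genes passed in either tissue, where 0.007% of probes in femur and 0.0139% in white adipose tissue passed (1 of 14281 and 2 of 14342). The counts over all probes depended on single arrays: leaving out 1 array at a time gave 0 to 702 probes in femur, the most without wild type replicate 3, and 0 to 3 in white adipose tissue, while the count of these genes stayed at 0 in each such fit. The widest genotype differences in this set were lower values in AEA001 mutant fat, of a pair of Bmp1 probes (-0.47 and -0.46) and of Serpinh1 (-0.43), and of P4ha1 in mutant femur (-0.42). The Bmp1 probe ILMN_2989955 was at 0.02 in mutant fat.

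**Figure D1:**
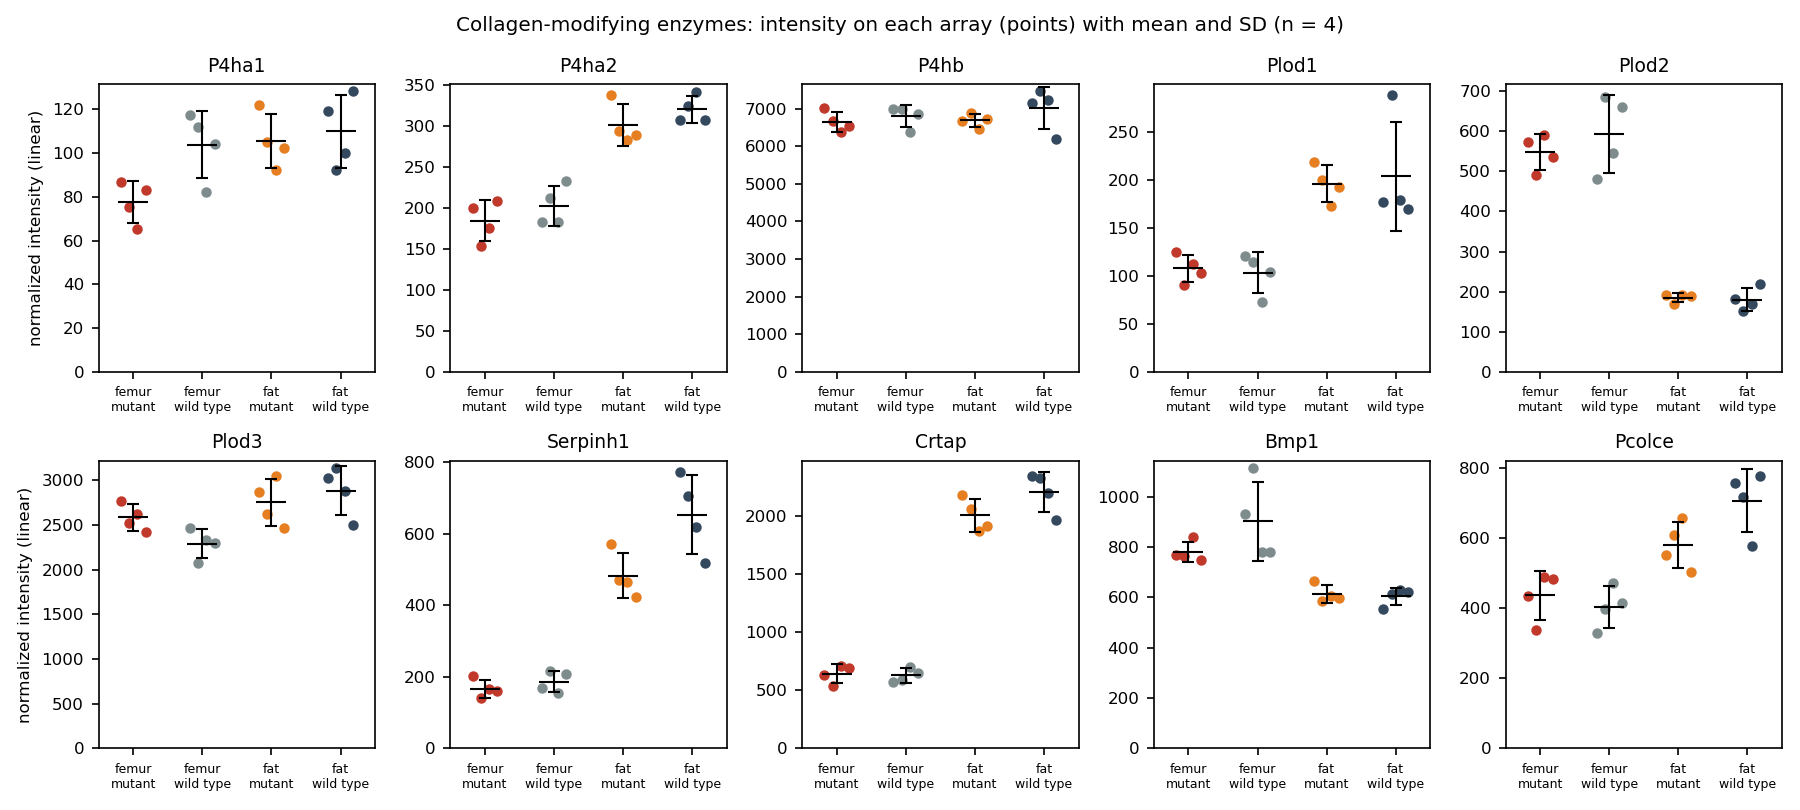
Normalized intensity (linear scale, from 0) of each gene's brightest probe over all 16 arrays (ILMN_2989955 for Bmp1) on every array, in femur and white adipose tissue (fat) of AEA001 mutants and wild type; points are arrays in replicate order, and the bar with whiskers is the mean with SD (n = 4). Plod2 stands higher in femur than in fat in both genotypes, Serpinh1 and Crtap stand lower in femur, and mutant and wild-type points of the plotted probes overlap in each panel; ILMN_1218116, the brightest Bmp1 probe in fat, is plotted with the other Bmp1 probes.

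The arrays carried the markers of their tissue, and some of them held other tissue as well. Of 6 osteoblast markers, 5 exceeded the floor of 16 on every femur array, with a summed intensity of 20112 to 24471 in mutant and 18557 to 24799 in wild-type femur. The same sum was 121 to 512 in mutant and 116 to 128 in wild-type fat. Femur arrays also carried skeletal muscle markers, summing to 46869 to 56419 in mutants and 49848 to 59536 in wild type, and granulocyte markers of the marrow at 146748 to 160202 and 134119 to 147203, so femur values are those of bone, marrow and muscle together. The array of AEA001 mutant replicate 2 stood apart in fat: its granulocyte markers summed to 17626 against 519 to 918 on the other mutant fat arrays and 490 to 1553 in wild-type fat. Its 512 was the highest osteoblast sum in fat. The same array also had the highest skeletal muscle, erythroid and cartilage marker sums in fat, at 4534, 3199 and 142. The other fat arrays reached at most 2577, 1902 and 50. The wider genotype differences in fat are therefore also given without it. In samples of whole tissue, fewer cells of a type and less RNA per cell cannot be told apart.

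The regions before the genes' starts are shown for the gene pair with the largest lower values in femur (Serpinh1 and Crtap) and for P4hb, whose level differed least between the tissues. RefSeq promoters of assembly GRCm38.p6 matched 8 of the 10 genes. The 250 bases before the start are printed 5′ to 3′ on the gene's strand, and capitals mark matches on either strand to 4 motifs. These were TATAAA as the box of that name, CCAAT as the element bound by nuclear factor Y, GGGCGG as the GC box and ACGTG as the core of hypoxia response elements. All 3 genes lie on the minus strand, at chr7:99353240-99353489 for Serpinh1, chr9:114390713-114390962 for Crtap and chr11:120573254-120573503 for P4hb.
Serpinh1: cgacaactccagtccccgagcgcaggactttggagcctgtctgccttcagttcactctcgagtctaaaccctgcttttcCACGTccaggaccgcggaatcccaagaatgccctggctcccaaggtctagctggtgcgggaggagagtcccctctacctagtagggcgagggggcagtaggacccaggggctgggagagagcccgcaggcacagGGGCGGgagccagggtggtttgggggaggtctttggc
Crtap: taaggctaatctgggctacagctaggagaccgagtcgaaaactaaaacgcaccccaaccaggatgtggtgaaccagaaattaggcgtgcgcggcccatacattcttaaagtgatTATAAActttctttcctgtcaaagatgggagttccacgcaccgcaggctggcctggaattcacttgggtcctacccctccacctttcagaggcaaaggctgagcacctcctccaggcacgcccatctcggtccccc
P4hb: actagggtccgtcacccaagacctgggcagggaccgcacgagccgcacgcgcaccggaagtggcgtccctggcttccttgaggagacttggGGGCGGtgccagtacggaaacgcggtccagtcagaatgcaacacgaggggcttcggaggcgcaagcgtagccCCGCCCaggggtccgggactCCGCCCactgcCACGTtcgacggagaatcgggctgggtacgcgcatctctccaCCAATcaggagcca
The Serpinh1 promoter held a GC box match and an ACGTG match, the Crtap promoter a TATAAA match and none of the other motifs, and the P4hb promoter 3 GC box matches, a CCAAT match and an ACGTG match. Over the 8 promoters, GGGCGG occurred in 6, against 32.7% of 32851 mouse promoters of the same length, and ACGTG in 5 (P4ha1, P4ha2, P4hb, Plod3 and Serpinh1), against 16.6%. TATAAA occurred in 2 (Plod1 and Crtap), against 12.4%, and CCAAT in 2 (P4hb and Plod3), against 33.8%. Matches of different motifs did not overlap in these 8 promoters. The GC content of the 8 ran from 53.6% to 70%, above the median of 52.4% over all promoters. A match is a run of letters and not a tested binding site.

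Of the prolyl 4-hydroxylase genes, which encode the catalytic alpha subunits (P4ha1 and P4ha2) and the beta subunit protein disulfide isomerase (P4hb), only P4ha1 had a genotype difference at an unadjusted limma p under 0.05, in femur. P4ha1 had intensities of 86.9, 75.5, 65.3 and 83.2 in mutant femurs, against 117, 112, 82.4 and 104 in wild-type femurs. Wild type replicate 3, at 82.4, lay within the mutant range and the other wild-type femurs above it. In mutant fat P4ha1 was at 122, 105, 92.3 and 103, against 119, 92.2, 100 and 128 in wild-type fat, where the groups overlapped throughout. The femur difference was -0.42 ± 0.14, or 1.33-fold lower in mutants (95% interval 1.07 to 1.66), with a limma adjusted p of 0.212 and an exact permutation p of 0.0857. In fat it was -0.06 ± 0.13 (limma adjusted p = 0.809). Without wild type replicate 3 the femur value was -0.52 (limma adjusted p = 0.0521). P4ha1 did not differ detectably between wild-type femur and wild-type fat (-0.08 ± 0.15, limma adjusted p = 0.631), and in mutants it was lower in femur (-0.44 ± 0.15, limma adjusted p = 0.0136).

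P4ha2 was lower in femur than in fat in both genotypes, without overlap. Its intensities were 153 to 209 in mutant femurs and 183 to 233 in wild-type femurs, and 284 to 339 in mutant fat and 308 to 342 in wild-type fat. The tissue difference was -0.72 ± 0.11 in mutants (limma adjusted p = 4.08e-05) and -0.67 ± 0.11 in wild type (limma adjusted p = 8.09e-05), 1.59-fold in wild type. The genotype differences were -0.14 ± 0.13 in femur and -0.09 ± 0.09 in fat, with limma adjusted p-values of 0.619 and 0.522. P4hb, which also serves as a general folding enzyme outside collagen synthesis, was the most even of the set. Its 16 arrays ran from 6190 to 7468, with means of 6642 ± 273 in mutant and 6803 ± 284 in wild-type femur and of 6685 ± 172 in mutant and 7009 ± 563 in wild-type fat (SD, n = 4 each). The genotype differences were -0.03 ± 0.08 and -0.06 ± 0.09 (95% intervals -0.22 to 0.15 in femur and -0.26 to 0.13 in fat). The femur minus fat difference in wild type was -0.04 ± 0.08 (95% interval -0.21 to 0.13).

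The lysyl hydroxylases split by tissue. Plod2, which hydroxylates lysines in the telopeptides and so sets the cross-links typical of bone, was higher in femur. Plod1, which acts on the helix, was lower there. Plod3, which also adds sugar to hydroxylysine, passed as lower there in wild type and not in mutants. Plod2 had intensities of 573, 491, 592 and 535 in mutant and 481, 686, 546 and 660 in wild-type femurs. In fat it had 193, 169, 191 and 188 in mutants, against 182, 152, 169 and 219 in wild type. Every femur array lay above every fat array, and the genotypes overlapped in both tissues. Plod2 was 2.95-fold higher in femur than in fat in mutants (1.56 ± 0.13, limma adjusted p = 2.89e-08) and 3.29-fold higher in wild type (1.72 ± 0.13, limma adjusted p = 9.28e-09). The genotype difference was -0.10 ± 0.13 in femur and 0.05 ± 0.12 in fat (limma adjusted p = 0.720 and 0.812).

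Plod1 had intensities of 125, 90.6, 113 and 103 in mutant femurs, against 121, 115, 72.8 and 104 in wild-type femurs. In fat it had 219, 200, 173 and 192 in mutants, against 177, 289, 179 and 170 in wild type. A single array, wild type replicate 2 at 289, set the upper end in fat, and the other wild-type fat arrays lay between 170 and 179. The genotype difference in fat was -0.02 ± 0.18, and 0.16 without that array. In femur it was 0.08 ± 0.17. The femur minus fat difference was -0.87 ± 0.19 in mutants and -0.97 ± 0.19 in wild type (limma adjusted p = 0.000749 and 0.000279), so Plod1 was 1.82-fold and 1.96-fold lower in femur.

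Plod3 had intensities of 2766, 2526, 2623 and 2416 in mutant femurs, against 2468, 2070, 2332 and 2291 in wild-type femurs. The genotypes touched only where the lowest mutant (2416) lay below the highest wild type (2468). In fat it had 2866, 2621, 3048 and 2465 in mutants, against 3020, 3137, 2873 and 2499 in wild type. The femur difference of 0.17 ± 0.09 did not pass (limma adjusted p = 0.362, exact permutation p = 0.0571), nor did the fat difference of -0.07 ± 0.11 (limma adjusted p = 0.703). Plod3 was lower in femur than in fat in wild type (-0.33 ± 0.10, limma adjusted p = 0.00751) and did not pass in mutants (-0.09 ± 0.10, limma adjusted p = 0.444). The wild-type value was -0.24 without wild type replicate 2 (limma adjusted p = 0.0764). A test of the difference between these tissue contrasts, which is the same as that of the genotype effects, did not pass (0.24 ± 0.14, limma adjusted p = 0.287).

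The chaperones Serpinh1 and Crtap were both lower in femur than in fat in each genotype. Serpinh1 had intensities of 201, 142, 166 and 159 in mutant femurs, against 167, 215, 156 and 209 in wild-type femurs. In fat it had 571, 470, 466 and 422 in mutants, against 772, 705, 618 and 518 in wild type. The femur genotypes overlapped widely, and in fat only wild type replicate 4 (518) lay below the highest mutant (571). Serpinh1 was 2.90-fold lower in femur than in fat in mutants (-1.53 ± 0.16, limma adjusted p = 2.75e-07) and 3.49-fold lower in wild type (-1.80 ± 0.16, limma adjusted p = 3.95e-08). In fat the mutant difference was -0.43 ± 0.15, or 1.35-fold lower (95% interval 1.07 to 1.70). It did not pass over all probes (limma adjusted p = 0.133, exact permutation p = 0.0571), and was -0.42 without mutant replicate 2 (limma adjusted p = 0.213). In femur it was -0.16 ± 0.15 (limma adjusted p = 0.609).

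Crtap, whose product is part of the complex that hydroxylates the 3-position of a helical proline and helps the chains fold, was measured by a pair of probes that ran together. Probe ILMN_1223997 had 568, 564, 692 and 691 in mutant femurs, against 536, 603, 665 and 526 in wild-type femurs, and 2063, 2076, 2156 and 1741 in mutant fat, against 2772, 2400, 2125 and 2115 in wild-type fat. Probe ILMN_2877541 ranged over 532 to 710 in mutant and 571 to 703 in wild-type femurs, and over 1864 to 2173 in mutant and 1958 to 2338 in wild-type fat. Neither probe separated the genotypes in either tissue. The tissue difference was -1.68 ± 0.12 in mutants and -2.01 ± 0.12 in wild type by ILMN_1223997, and -1.65 ± 0.11 in mutants and -1.82 ± 0.11 in wild type by ILMN_2877541. By ILMN_1223997, Crtap was 3.20-fold lower in mutant femur and 4.03-fold lower in wild-type femur than in fat (limma adjusted p = 4.10e-09 and 4.42e-10). The genotype difference by the same probe was 0.11 ± 0.12 in femur and -0.22 ± 0.12 in fat (limma adjusted p = 0.670 and 0.258).

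**Figure D2:**
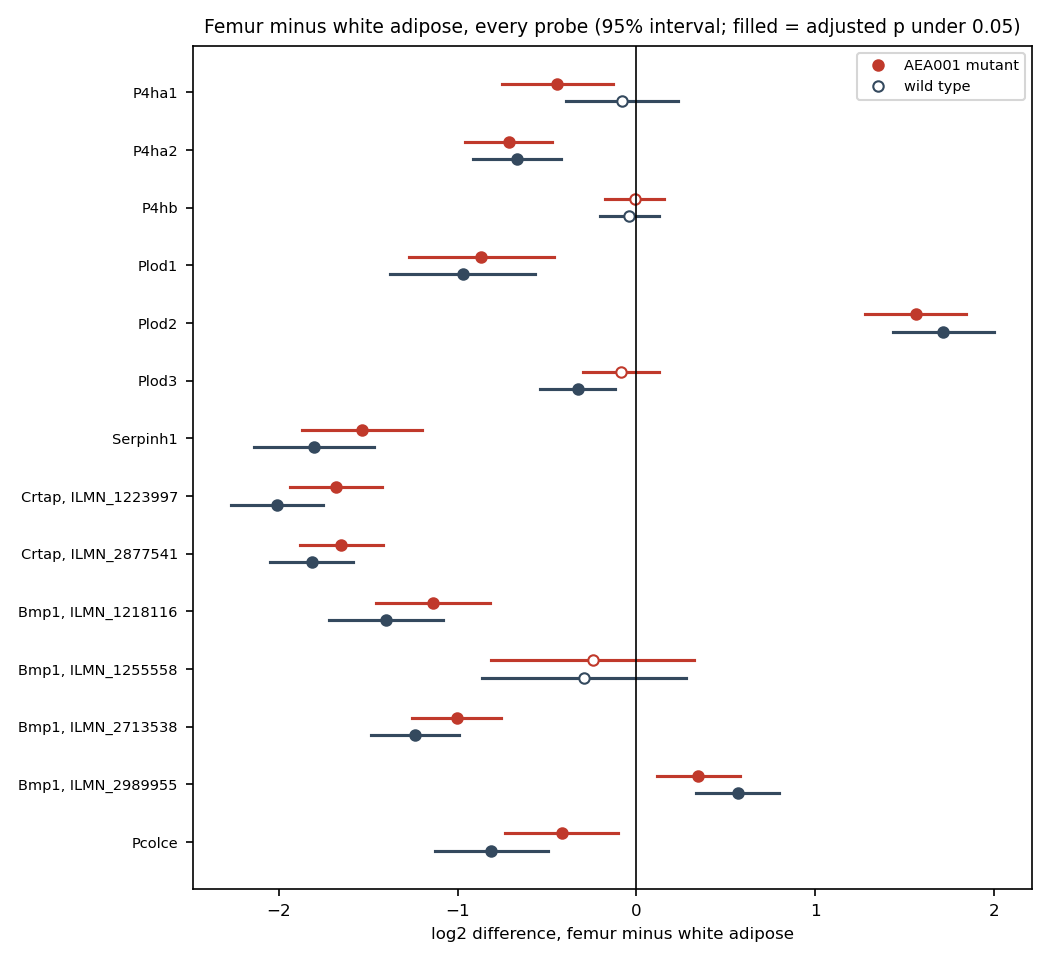
Femur minus white adipose log2 difference of every probe, in AEA001 mutants (upper line of each pair) and wild type (lower line); lines are 95% intervals from the limma fit of 16 arrays, and filled points have an adjusted p under 0.05. Plod2 lies furthest to the right at 1.56 in mutants and 1.72 in wild type, Crtap and Serpinh1 furthest to the left, and Bmp1 probes fall on both sides of zero.

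Bmp1 encodes BMP-1 and the longer product mammalian tolloid from the same gene, both of which remove the C-propeptide of procollagen. Its probes did not run together. Probe ILMN_2989955 had 768, 763, 838 and 750 in mutant femurs, against 932, 1114, 781 and 781 in wild-type femurs, and 665, 587, 605 and 597 in mutant fat, against 553, 613, 627 and 619 in wild-type fat. Probe ILMN_1218116 had 281, 291, 380 and 446 in mutant femurs, against 381, 476, 395 and 346 in wild-type femurs, and 794, 732, 826 and 679 in mutant fat, against 1207, 1043, 967 and 990 in wild-type fat. Thus the first was higher in femur and the second higher in fat, on all arrays of both genotypes. Probe ILMN_2713538 followed the second, with 222, 249, 303 and 312 in mutant femurs, against 291, 357, 311 and 304 in wild-type femurs, and 567, 551, 564 and 483 in mutant fat, against 762, 751, 668 and 791 in wild-type fat. Probe ILMN_1255558 was dim, at 7.20 to 38.5 in mutant and 17.4 to 32.6 in wild-type femurs and at 26.4 to 32.7 in mutant and 25.2 to 46.6 in wild-type fat, and showed no difference of either kind past a threshold.

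**Figure D3:**
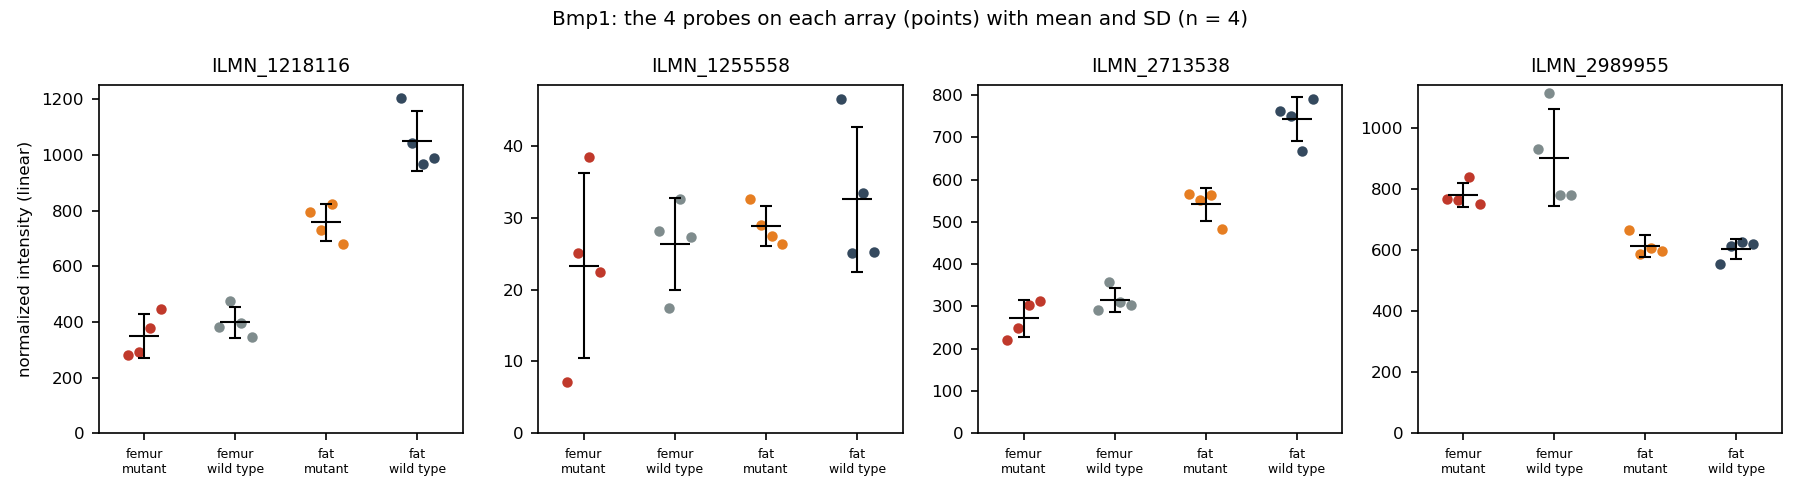
Normalized intensity (linear scale, from 0) of the 4 Bmp1 probes on every array, with the mean and SD of each group (n = 4); the order of groups is mutant and wild-type femur, then mutant and wild-type fat. ILMN_2989955 is higher in femur, while ILMN_1218116 and ILMN_2713538 are higher in fat and lower in mutant fat (679 to 826 for ILMN_1218116) than in wild-type fat (967 to 1207).

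The femur minus fat difference of ILMN_2989955 was 0.35 ± 0.11 in mutants and 0.57 ± 0.11 in wild type (limma adjusted p = 0.0103 and 0.000239). That of ILMN_1218116 was -1.14 ± 0.15 in mutants and -1.40 ± 0.15 in wild type (limma adjusted p = 4.53e-06 and 4.30e-07), and that of ILMN_2713538 was -1.01 ± 0.12 and -1.24 ± 0.12 (limma adjusted p = 1.14e-06 and 1.01e-07). The direction of Bmp1 between tissues therefore depends on the probe. Within an array, the log2 ratio of ILMN_2989955 over ILMN_1218116 averaged 1.18 ± 0.32 in mutant and 1.17 ± 0.13 in wild-type femur, and -0.30 ± 0.11 in mutant and -0.80 ± 0.23 in wild-type fat (SD, n = 4 each). It was higher in femur than in fat of the same animal in 8 of 8 animals, by 1.73 ± 0.42 (SD, n = 8). Over ILMN_2713538 the same difference was 1.58 ± 0.36 (SD, n = 8). These ratios were set up after the values had been seen and are given as a description, with no test. All of these probes are annotated to 1 transcript, so which product each one reads is not known here.

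Between genotypes, ILMN_1218116 was -0.47 ± 0.10 in mutant fat, or 1.39-fold lower (95% interval 1.18 to 1.64), and ILMN_2713538 was -0.46 ± 0.09, or 1.37-fold lower (95% interval 1.19 to 1.59). Every mutant fat array lay below every wild-type fat array for both, which gives an exact permutation p of 0.0286, the smallest that 4 against 4 arrays allow. Neither passed over all probes (limma adjusted p = 0.112 and 0.111). Without the fat array of mutant replicate 2 the values were -0.46 and -0.47 (limma adjusted p = 0.177 and 0.176). ILMN_2989955 was 0.02 ± 0.08 in fat (95% interval -0.16 to 0.21). The within-array ratio of ILMN_2989955 over ILMN_1218116 was accordingly higher in mutant fat by 0.50, and over ILMN_2713538 by 0.48, or by 0.50 and 0.51 without mutant replicate 2. In femur these ratio differences were 0.01 and 0.03, and the 3 brighter probes themselves were -0.20 ± 0.13, -0.21 ± 0.17 and -0.23 ± 0.13 (limma adjusted p = 0.456, 0.559 and 0.412).

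Pcolce, which encodes the enhancer that speeds removal of the C-propeptide, was lower in femur. It had intensities of 435, 339, 489 and 484 in mutant femurs, against 328, 399, 474 and 416 in wild-type femurs. In fat it had 551, 610, 657 and 504 in mutants, against 758, 717, 578 and 777 in wild type. The femur genotypes overlapped widely, and in fat wild type replicate 3 (578) lay among the mutants. Pcolce was 1.34-fold lower in femur than in fat in mutants (-0.42 ± 0.15, limma adjusted p = 0.0191) and 1.75-fold lower in wild type (-0.81 ± 0.15, limma adjusted p = 0.000136). Mutant minus wild type came to 0.11 ± 0.15 in femur, with a limma adjusted p of 0.749. In fat it came to -0.28 ± 0.13 (limma adjusted p = 0.198, exact permutation p = 0.0857), and to -0.31 without mutant replicate 2.

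**Figure D4:**
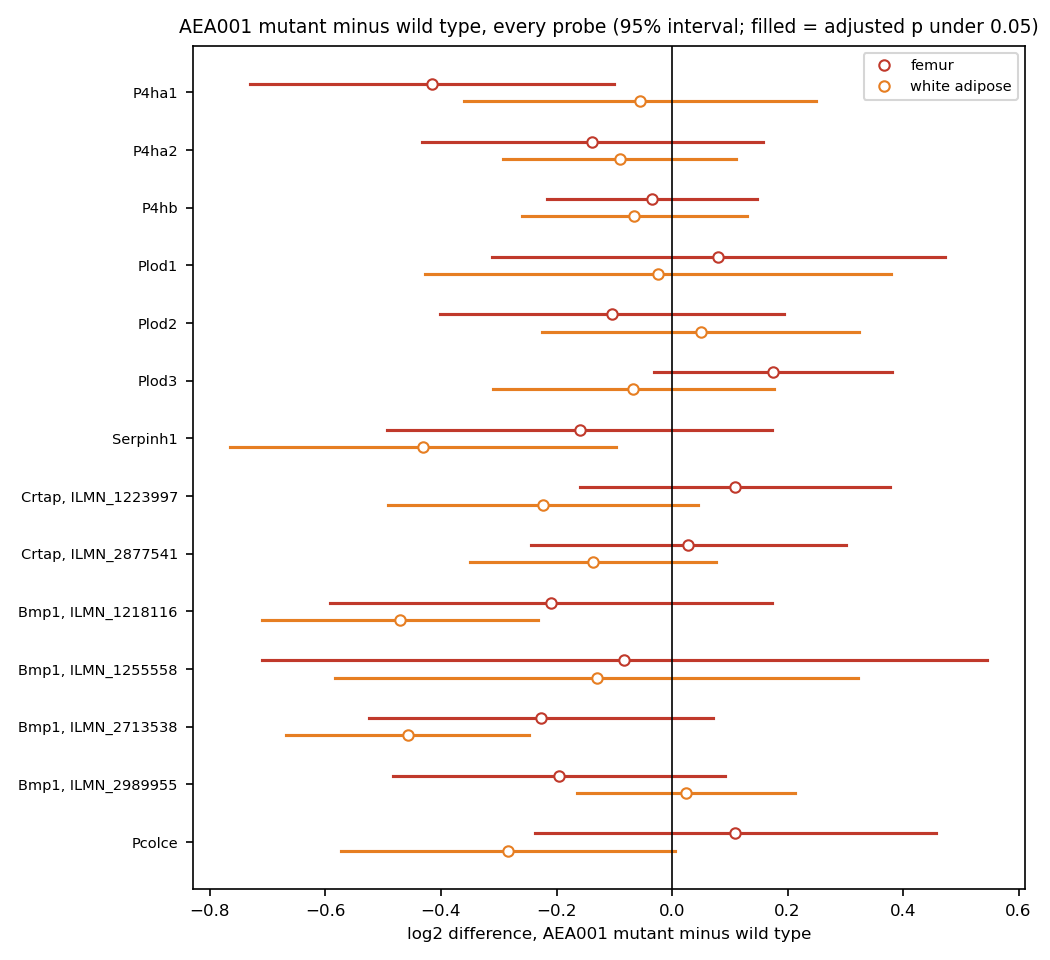
AEA001 mutant minus wild type log2 difference of every probe in femur (upper line of each pair) and white adipose tissue (lower line), with 95% intervals from limma; open points did not pass an adjusted p of 0.05, and no point is filled. In white adipose tissue the intervals of Serpinh1 and of Bmp1 ILMN_1218116 and ILMN_2713538 lie below zero, and in femur that of P4ha1.

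The counts over the 10 genes are set beside the shares over all genes. In femur, 1 of the 10 (P4ha1) was lower at an unadjusted limma p under 0.05, against 9.17% of all genes, and 0 were higher, against 6.53%. Values were below zero for 6 and above for 4, with a median of -0.07, where 56% of all 9789 genes tested were below zero with a median of -0.03. In fat, 2 of the 10 (Bmp1 and Serpinh1) were lower at an unadjusted limma p under 0.05, against 12.2% of all genes, and 0 were higher, against 13.3%. Bmp1 was counted in fat by ILMN_1218116, its brightest probe there, and in femur by ILMN_2989955. The latter probe was 0.02 ± 0.08 in mutant fat, where its genotypes overlapped, so the Bmp1 counts in fat depend on the probe. Only Plod2 was above zero in fat by the brightest probe, and 9 were below, with a median of -0.08, where 45.3% of all 9878 genes were below zero with a median of 0.03. Mutant arrays lay wholly below wild-type arrays for 1 of the 10 in fat (Bmp1 by ILMN_1218116), against 7.37% of all genes, and wholly above for 0, against 8.53%. In femur, 0 of the 10 lay wholly below, against 5.5% of all genes, and 0 wholly above, against 4.23%. The limma adjusted p-values of the 10 genes ran from 0.212 to 0.930 in femur and from 0.112 to 0.943 in fat. Taken as the mean of the 10 genes on each array, centred on the mean of the tissue's 8 arrays, mutant fat lay at 0.01, -0.09, -0.08 and -0.18 and wild-type fat at 0.17, 0.13, 0.00 and 0.03 on the log2 scale. The groups overlapped, since the highest mutant lay above the lowest wild type.

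The genotype effect in femur minus that in fat did not pass for any of the 10 genes in the joint fit of both tissues, which took the animal as a random block and in which 5.11% of probes and 4.66% of genes passed. At an unadjusted limma p under 0.05, 0 of the 10 genes were lower, against 14% of all genes, and 0 higher, against 11.4%. The 818 probes behind that share became 1 to 2683 when single animals were left out, the most without wild type replicate 3. By each gene's brightest probe, the values nearest to the threshold were those of Pcolce (0.39 ± 0.21, limma adjusted p = 0.244), P4ha1 (-0.36 ± 0.21, limma adjusted p = 0.284) and Plod3 (0.24 ± 0.14, limma adjusted p = 0.287). The other Crtap probe, ILMN_1223997, was at 0.33 ± 0.17 (limma adjusted p = 0.230). Serpinh1 was at 0.27 ± 0.22 and Bmp1 by ILMN_1218116 at 0.26 ± 0.21 (limma adjusted p = 0.458 and 0.448). The lower values of Serpinh1 and Bmp1 in mutant fat are thus not shown to differ from those in femur.

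Other genes of collagen production were described as lists, and 0 of their genes passed the adjusted threshold in either genotype comparison. Their counts at an unadjusted limma p under 0.05 stand against 9.17% of all genes lower and 6.53% higher in femur, and 12.2% lower and 13.3% higher in fat. Of 8 tested genes that also modify collagen in the ER, 5 were above zero in mutant femur and 1 in mutant fat, with medians of 0.01 and -0.24. At an unadjusted limma p under 0.05, 4 of them were lower in fat and 1 higher, and 1 was higher in femur. Of 8 tested genes of procollagen export, 5 were above zero in femur and 0 in fat, with medians of 0.01 and -0.24, and 3 were lower in fat and 2 higher in femur at an unadjusted limma p under 0.05. Among fibrillar collagen chains, 2 of 9 were above zero in femur and 3 of 8 in fat, with medians of -0.12 and -0.34, and 3 and 4 were lower at an unadjusted limma p under 0.05. Col1a1, the main chain of bone collagen, was -0.41 ± 0.14 in femur and -0.80 ± 0.25 in fat (limma adjusted p = 0.217 and 0.122). Col1a2, the other chain of type I collagen, was -0.48 ± 0.17 in femur and 0.05 ± 0.17 in fat (limma adjusted p = 0.230 and 0.874). Of 7 tested general ER folding genes, 4 were above zero in femur and 0 in fat, with medians of 0.06 and -0.34. At an unadjusted limma p under 0.05, 1 of these was higher and 1 lower in femur, and 3 were lower in fat. Of the other propeptide-processing genes 2 were tested, and Pcolce2, a homologue of Pcolce, was -1.45 ± 0.38 in fat (limma adjusted p = 0.112) and 0.23 ± 0.28 in femur. It was lower in fat at an unadjusted limma p under 0.05, and the other gene differed in neither tissue at that level. These medians compare with -0.03 in femur and 0.03 in fat over all genes tested.

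**Figure D5:**
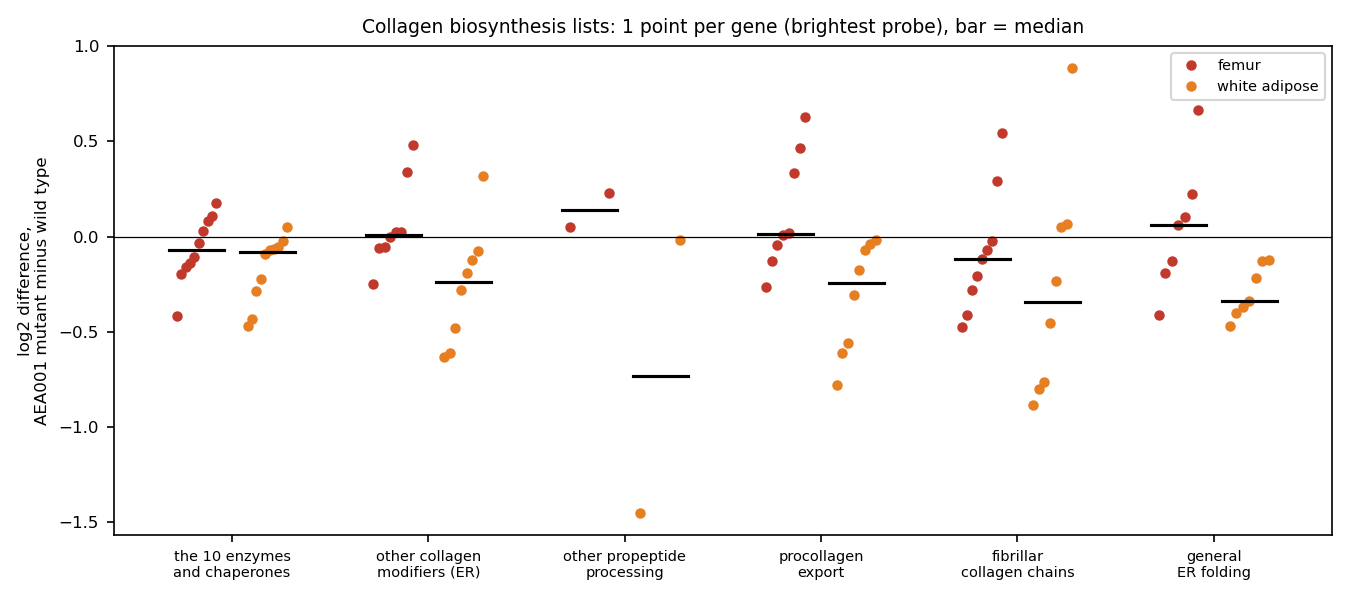
AEA001 mutant minus wild type log2 difference of the 10 genes and of 5 further lists of collagen production, in femur (left cloud of each pair) and white adipose tissue (right cloud); each point is a gene by its brightest probe, and bars are medians. All list medians in white adipose tissue lie below zero, from -0.08 for the 10 genes to -0.73 for the pair of other propeptide-processing genes, and no gene passed the adjusted threshold.

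Of 34 tested genes of these lists, 2 passed the test of the difference between tissues (5.88%, against 4.66% of all genes), and they are named after their values were seen. Tmem38b, which encodes an ER cation channel whose loss causes brittle bones in people, was 0.48 ± 0.10 in mutant femur and -0.48 ± 0.12 in mutant fat, a difference of 0.96 ± 0.16 (limma adjusted p = 0.0244). Sec23a, a coat protein of the vesicles that carry procollagen out of the ER, was 0.63 ± 0.14 in femur and -0.78 ± 0.23 in fat, a difference of 1.41 ± 0.29 (limma adjusted p = 0.0288). Both calls were lost in 6 of the 8 fits that left out 1 animal, all but those without wild type replicate 3 or wild type replicate 4. Over these 8 fits the limma adjusted p ran from 0.00177 to 0.112 for Tmem38b and from 0.000698 to 0.131 for Sec23a.

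Macrophage markers lay on opposite sides of zero in the tissues. In fat, 4 macrophage markers summed to 5550 to 6714 in mutants and to 9427, 8668, 6748 and 7506 in wild type, in replicate order. All 4 were below zero in fat, with a median of -0.37 and 2 at an unadjusted limma p under 0.05. In femur they summed to 4053 to 4869 in mutants and 2166 to 4180 in wild type, and all 4 were above zero at that level, with a median of 0.48. None passed the adjusted threshold. These markers were C1qa, C1qb, C1qc and Adgre1. Marker counts at the unadjusted level stand against 12.2% of all genes lower and 13.3% higher in fat. In femur the shares were 9.17% lower and 6.53% higher. Of 5 fibroblast markers, 3 were above zero in mutant fat and 2 below, with a median of 0.03, and their sums were 22710 to 23743 in mutants and 20681 to 23664 in wild type. At an unadjusted limma p under 0.05, 2 of the 5 differed, in opposite directions, and both are named after their values were seen. Lum, which encodes the collagen-binding proteoglycan lumican, was at 1612, 1165, 1268 and 1014 in mutant fat, against 3611, 2915, 1631 and 2000 in wild-type fat. Every mutant array lay below every wild-type array, as for 7.37% of all genes in fat (-0.96 ± 0.26, limma adjusted p = 0.112). Dcn, which encodes decorin, ran from 17157 to 18403 in mutant and from 14770 to 17415 in wild-type fat (0.20 ± 0.08, limma adjusted p = 0.182). Of 6 adipocyte markers, 5 were above zero in mutant fat and 1 below, with a median of 0.17. Their sums were 62046 to 68475 in mutants and 64719 to 72760 in wild type. At an unadjusted limma p under 0.05, 3 of the 6 differed, not all in 1 direction, and these are also named after their values were seen. Plin1 (0.38 ± 0.10) and Adipoq (0.27 ± 0.09) were higher in mutant fat (limma adjusted p = 0.112 and 0.130). Lep was lower (-0.66 ± 0.19, limma adjusted p = 0.112), at 11920 to 20603 in mutant and 20938 to 27335 in wild-type fat. The part of these cells in the Serpinh1 and Bmp1 values was not tested.

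As a description, the genes whose levels most resembled the mean of the 10 genes over the 8 arrays of a tissue were listed. In fat these were Emilin2, Edem1, Ugt1a10, Pqlc3 and Msn, with Pearson correlations of 0.986 to 0.993 among 9868 other genes. Emilin2 encodes an extracellular matrix glycoprotein, Edem1 a factor that sends misfolded glycoproteins from the ER to degradation, and Msn the membrane-cytoskeleton linker moesin. Edem1 was -0.90 in mutant fat (limma adjusted p = 0.112). In femur the genes were Slc4a2, Ciao3, Xpr1, Rab40c and Mfap3l, with correlations of 0.927 to 0.962 among 9779 genes. Slc4a2 encodes an anion exchanger and Xpr1 a phosphate exporter. These correlations rest on 8 arrays of 1 normalization, and the genes were picked for their high values.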

How the data were processed

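Femur and white adipose RNA of 8 mice was measured on 16 Illumina bead arrays, 4 per tissue and genotype. RNA was isolated with Trizol, cleaned on columns and turned into biotin-labelled cRNA, per the labels' protocols. The deposited values are the authors' normalized intensity of 25697 probes on a linear scale, made with GenomeStudio 2011.1 per the submitters' processing notes. How background was corrected and values normalized is not given in the sources used here. Between 25.3% and 25.4% of values per array were negative, as after background subtraction, and once sorted, intensities were equal between arrays to within 0.797, as after quantile normalization over both tissues, which hides any difference in the amount of RNA. Array medians were 25.2 to 25.3. Precision is limited by the number of arrays. A table of signals before normalization was left out, since its 16 signal columns match no sample label.

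Probes were named from the platform annotation (23978 with 1 gene, 0 with several, 1719 unnamed), with 23962 symbols updated through RefSeq gene tables of GRCm38.p6. Intensities were floored at 16 and taken to log2, which understates differences of dim probes. A probe was tested if it exceeded 16 on at least 4 arrays of the fit. All 10 genes were tested in both tissues. Within a tissue, genotypes were tested by lmFit and two-sided eBayes of limma 3.58.1 under R 4.3.3, at a Benjamini-Hochberg adjusted threshold of 0.05 over all probes. Tissues, and the difference of the genotype effect between them, were tested in a joint fit of 16 arrays, the animal being a random block, since an animal's arrays share a number and identifier in the labels (consensus correlation -0.07; correlations of an animal's deviations ran from -0.24 to 0.03). Single probes were also tested by exact permutation over 70 relabelings, without adjustment. A gene with several probes was counted by its brightest in the fit. The fits were checked on simulated data.

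The 10 genes, the further gene lists, the cell type markers and the tests were chosen with earlier results of these data known. All probes of the 10 genes are reported. Other genes appear as lists given by counts and medians, those of a list past the threshold by name, and the 5 of highest correlation with the genes' mean in each tissue. Col1a1, Col1a2, Pcolce2, Lum, Dcn, Plin1, Adipoq and Lep were named after their values were seen. Alternatives covered the floor, the dim-probe filter, the variance model, renormalization, 1 fit of all 16 arrays, blocks, the threshold, and leaving out each replicate or both animals of the shared identifier. Replicates are separate animals per the labels, except for that shared identifier.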

Additional observations from a re-analysis of the deposited data

Results flagged for a closer look

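One value stood far from the others of its group. In wild-type fat, Plod1 was at 288.9 on the array of replicate 2 and between 170 and 179 on the other 3 arrays, so that its gap to the nearest array was 0.907 of the group's range, past the critical value of Dixon's test at the 95% level for 4 values. Such a gap arises by chance in about 1 in 20 groups, and it was found in 1 of 56 groups examined. Without that array the genotype difference of Plod1 in fat was 0.16.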

How the results depend on the processing

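None of the 10 genes, taken by the brightest probe, passed a genotype comparison under any alternative run. A dimmer Bmp1 probe, ILMN_2713538, passed in fat when all 16 arrays were fitted together (-0.46, limma adjusted p = 0.0346). Over its alternatives, the limma adjusted p of ILMN_1218116 in fat ran from 0.0503 to 0.262, that of Serpinh1 in fat from 0.0782 to 0.290 and that of P4ha1 in femur from 0.0521 to 0.441. The counts over all probes were less stable. In femur, 1 probe passed, against 0 with a floor of 32, 2 without the dim-probe filter, 3 with a variance trend and robust eBayes, 158 in the fit of all 16 arrays, 398 without both animals of the shared identifier, 5 at a threshold of 0.10 and 0 to 702 when 1 replicate was left out. In fat, 2 passed, against 1 with a floor of 32, 0 without the filter, 7 with the variance trend, 949 in the fit of all 16 arrays, 0 without both animals of the shared identifier and 0 to 3 when 1 replicate was left out. For the difference between tissues, 818 passed, against 1266 with a floor of 32 and 1 to 2683 when 1 replicate was left out. At an unadjusted limma p under 0.05, 4 of the 10 genes were lower in fat with the variance trend, against 2 in the main fit, and 2 to 3 when 1 replicate was left out. For the difference between tissues, 0 to 1 of the genes were lower at that level when 1 replicate was left out. In the main fits, 12.2% and 14% of all genes were lower. The shares of all genes in these alternative fits are not given here, so these counts are not read as a result about the 10 genes. Between wild-type tissues, 7 to 8 genes passed when 1 replicate was left out, and Plod3 missed the threshold in wild type alone with the animal as a block (limma adjusted p = 0.0503).

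Replicate numbers shared between genotypes were not taken as pairs in the main fits. Deviations of equal numbers correlated between -0.07 and 0.05 in femur and between -0.05 and 0.32 in fat. These correlations cannot settle whether equal numbers are paired, since those between an animal's own tissues were no higher (-0.24 to 0.03). With the replicate number as a block, 0 probes passed in femur and 0 in fat, and Bmp1 by ILMN_1218116 in fat had a limma adjusted p of 0.0782.

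Small differences changed sign. Without both animals of the shared identifier, Plod1 in femur was -0.060 and Bmp1 ILMN_1255558 in femur 0.069. When 1 replicate was left out, values in femur ran from -0.024 to 0.115 for Crtap ILMN_2877541, from -0.079 to 0.166 for Plod1 and from -0.304 to 0.119 for Bmp1 ILMN_1255558. In fat they ran from -0.239 to 0.058 for Bmp1 ILMN_1255558, from -0.017 to 0.045 for Bmp1 ILMN_2989955, from -0.098 to 0.156 for Plod1, from -0.029 to 0.147 for Plod2 and from -0.136 to 0.023 for P4ha1. The difference between tissues ran from -0.195 to 0.310 for Bmp1 ILMN_1255558, from -0.015 to 0.246 for Plod1, from -0.016 to 0.093 for P4hb and from -0.130 to 0.040 for P4ha2, and the wild-type tissue difference of P4hb from -0.102 to 0.0059. The cause of these changes was not tested. The mean of all kept Bmp1 probes in fat, an alternative chosen after seeing the data, was -0.26, and mutant arrays in place of wild type for the tissue contrast, the fits of Tmem38b and Sec23a without each animal and the Bmp1 probe ratios without mutant replicate 2 were added likewise. Background correction of the signals before normalization was not run, since those columns match no label.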
